A study of Mus musculus with 4 samples.

Results

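The 9 genes described here mark the cells and matrix of blood vessels and were taken by name from a matrix of 19090 genes. They are Vwf, Cldn5, Pecam1 and Flt1 for endothelial cells, Vtn for the mural cells and matrix of the vessel wall, Acta2, Tagln and Myh11 for smooth muscle, and Ccn1, a secreted matrix protein. The counts come from Visium spatial transcriptomics, in which a frozen tissue section lies on an array of barcoded spots and each captured transcript is counted once as a unique molecular identifier (UMI). A spot covers a small area that can hold several cells of different types, or part of one. There were 4 genotypes, with 1 hemisphere section each, cut at 10 µm from male mice aged 9 months: 5xFAD-Dp16, 5xFAD, Dp16 and wild-type C57BL/6J. 5xFAD mice carry transgenes driven by the neuronal Thy1 promoter and form amyloid plaques. In Dp16 mice the segment of mouse chromosome 16 that corresponds to human chromosome 21 is duplicated, and 5xFAD-Dp16 mice have the transgenes and the duplication. The submitters labelled the tissue as whole brain.

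Brain capillaries are tubes of endothelial cells sealed by tight junctions, wrapped by pericytes and embedded in a basement membrane. Arterioles and the larger arteries of the brain surface add rings of contractile smooth muscle. Capillaries run through the whole parenchyma, whereas smooth muscle is concentrated in arteries, most of all in the meninges and where vessels enter the brain, so endothelial and smooth muscle transcripts are expected to be spread differently over a section. In spots, fewer vessels or cells of a type and less RNA per cell cannot be told apart.

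The sections held 2941 spots with 36461389 UMIs (5xFAD-Dp16), 2347 spots with 26049860 UMIs (5xFAD), 2540 spots with 30885159 UMIs (Dp16) and 2721 spots with 34361244 UMIs (wild-type). The median UMI count of a spot lay between 9404 and 11639. Levels are UMIs scaled to all UMIs of the section or region (CPM), with an exact 95% Poisson interval in brackets, and differences as log2 ratios with an exact 95% interval from the counts. With 1 section per genotype there was no test of genotype and there are no p-values; all intervals cover counting error only, not the spread between mice or between sections. A gene was called higher or lower when its CPM differed at least 1.5-fold, that is, by 0.585 on the log2 scale, and the share of the 11033 genes averaging 5 CPM or more that passed the same threshold is given as the background. Of the 9 genes, 8 reached that average, while Myh11 averaged 2.61 CPM and was kept in the counts of members. Of 3164 barcodes, which mark array positions, 2879 occurred in more than 1 section.

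Among the submitters' 22 spot clusters, clusters 12 and 13 were unequally sampled. They held 183 spots in the 5xFAD-Dp16 section, 141 in the 5xFAD section and 148 in the Dp16 section, against 67 in the wild-type section. They made up 6.60%, 6.92% and 9.97% of the UMIs in the 5xFAD-Dp16, 5xFAD and Dp16 sections, against 3.01% in the wild-type section. Cluster 12 alone held 102, 64, 77 and 27 spots in 5xFAD-Dp16, 5xFAD, Dp16 and wild-type tissue. Its share of the UMIs was 2.22%, 1.54%, 2.38% and 0.639%, larger in each section with Dp16 than in its matched section without it. Cluster 13 made up 4.38%, 5.38%, 7.59% and 2.37% in the same order. The leading genes of cluster 12 were Cga, Myoc, Ptgds, Fmod and Acta2, and those of cluster 13 were Ttr, Ecrg4, Calml4 and Kcne2. Ttr and Kcne2 are choroid plexus genes, Myoc and Fmod are expressed by fibroblasts of the meninges, and Cga encodes a pituitary hormone subunit. Each level is therefore given for all spots and without these clusters.

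The endothelial genes did not move as 1 group. Vwf encodes von Willebrand factor, the adhesive glycoprotein that endothelial cells store and secrete, and is known to be stronger in larger vessels than in capillaries; it lies on chromosome 6 (125552948-125686679, RefSeq GRCm38.p6, the build of all coordinates here). It measured 5.90 CPM (5.13 to 6.74) in the 5xFAD-Dp16 section, 4.15 (3.40 to 5.01) in the 5xFAD section, 8.42 (7.43 to 9.51) in the Dp16 section and 4.16 (3.51 to 4.90) in the wild-type section. The Dp16 section stood above the other 3 and its interval overlapped none of theirs. Without clusters 12 and 13 the same sections gave 4.35, 3.46, 5.36 and 3.69 CPM, so the Dp16 value remained the highest but came closer to the rest.

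Cldn5 encodes claudin-5, the main tight junction protein of the blood-brain barrier, and lies on chromosome 16 (18776847-18778262), outside the segment duplicated in Dp16. Its level was 33.9 CPM (32.0 to 35.8) in 5xFAD-Dp16, 41.7 (39.3 to 44.3) in 5xFAD, 49.8 (47.3 to 52.3) in Dp16 and 39.2 (37.2 to 41.4) in wild-type tissue. The Dp16 section was highest and the 5xFAD-Dp16 section lowest, with 5xFAD and wild-type between them and overlapping. This order held without clusters 12 and 13, at 32.5, 41.7, 48.7 and 38.8 CPM in 5xFAD-Dp16, 5xFAD, Dp16 and wild-type tissue.

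Pecam1 (chromosome 11, 106654213-106715281) encodes CD31, the adhesion molecule at endothelial cell contacts. Its 4 levels, 7.71 CPM in 5xFAD-Dp16, 6.83 in 5xFAD, 6.99 in Dp16 and 8.38 in wild-type tissue, all overlapped in their intervals. With clusters 12 and 13 left out it was at 6.99 (6.13 to 7.94), 6.76 (5.77 to 7.88), 6.15 (5.26 to 7.14) and 8.16 (7.22 to 9.19) CPM in the same order, and the Dp16 and wild-type intervals no longer overlapped.

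Flt1 (chromosome 5, 147561604-147726438) encodes VEGF receptor 1, which binds VEGF-A, VEGF-B and placental growth factor and limits signalling through the receptor encoded by Kdr. It measured 12.8 CPM (11.65 to 13.99) in 5xFAD-Dp16, 13.4 (12.03 to 14.9) in 5xFAD and 13.99 (12.7 to 15.4) in Dp16 tissue, against 17.2 (15.9 to 18.7) in wild-type tissue. Wild-type tissue thus held the highest level and the other 3 sections overlapped, also with the clusters left out, at 12.3, 13.4 and 13.6 CPM against 16.8 CPM.

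Vtn encodes vitronectin, an adhesive matrix protein that in the brain is known as a pericyte product; it lies on chromosome 11 (78499120-78502325). Its level was 56.1 CPM (53.7 to 58.6) in 5xFAD-Dp16, 57.6 (54.7 to 60.6) in 5xFAD, 62.1 (59.4 to 64.9) in Dp16 and 49.998 (47.7 to 52.4) in wild-type tissue. Wild-type tissue had the lowest level over all spots, with no overlap with the other intervals. Without clusters 12 and 13 the levels were 46.0, 52.2, 44.0 and 47.0 CPM, in the same order of genotypes, and wild-type tissue was no longer lowest.

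The 3 smooth muscle genes encode parts of one contractile apparatus: Acta2 (chromosome 19, 34240336-34255585) the smooth muscle actin, Tagln (chromosome 9, 45929628-45936058) the actin-binding protein transgelin, and Myh11 (chromosome 16, 14194527-14292188, outside the duplicated segment) the smooth muscle myosin heavy chain. Acta2 measured 13.7 CPM (12.6 to 15.0) in 5xFAD-Dp16, 10.6 (9.38 to 11.9) in 5xFAD, 16.2 (14.8 to 17.6) in Dp16 and 9.34 (8.35 to 10.4) in wild-type tissue. Tagln followed at 8.26 CPM (7.35 to 9.24) in 5xFAD-Dp16, 5.87 (4.98 to 6.88) in 5xFAD, 8.48 (7.49 to 9.57) in Dp16 and 5.59 (4.83 to 6.44) in wild-type tissue. Both genes were higher in the sections with Dp16 than in those without it. Myh11 had 89, 67, 96 and 79 UMIs in 5xFAD-Dp16, 5xFAD, Dp16 and wild-type tissue, or 2.44, 2.57, 3.11 and 2.30 CPM, and all of its intervals overlapped.

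Without clusters 12 and 13 the smooth muscle genes gave another picture. Acta2 was then at 8.05 CPM (7.12 to 9.06) in 5xFAD-Dp16, 5.94 (5.01 to 6.99) in 5xFAD, 6.80 (5.86 to 7.84) in Dp16 and 6.90 (6.04 to 7.85) in wild-type tissue. The Dp16 and wild-type sections now lay together and only the 5xFAD-Dp16 value stood clear of 5xFAD. Tagln was at 4.90, 4.04, 3.88 and 4.89 CPM and Myh11 at 1.70, 1.81, 1.40 and 1.98 CPM in 5xFAD-Dp16, 5xFAD, Dp16 and wild-type tissue, each with overlapping intervals in all 4 sections. The plot of levels by section shows both sets of values for all 9 genes.

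**Figure D1:**
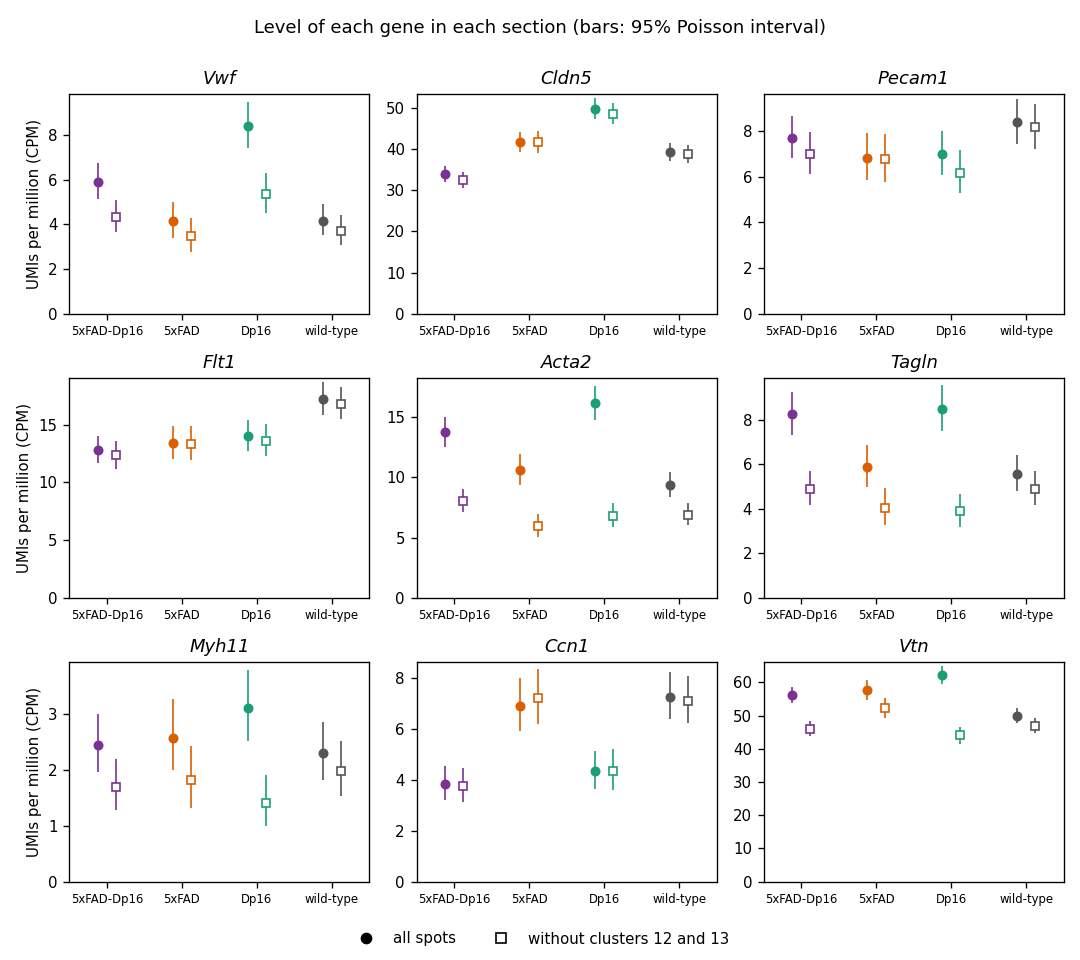
Level in CPM (vertical axis) of each of the 9 genes in the 4 sections, as filled circles for all spots and open squares without clusters 12 and 13, with 95% Poisson intervals. The 2 kinds of point lie apart for Acta2, Tagln, Myh11, Vwf and Vtn, most in the Dp16 section, where Acta2 was at 16.2 CPM over all spots and 6.80 CPM without the clusters, and lie together for Ccn1, Cldn5 and Flt1.

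Ccn1 (chromosome 3, 145646971-145649985) encodes a secreted protein, also called CYR61, that binds integrins and is induced as an immediate early gene and as a target of the transcriptional regulator YAP. It measured 3.84 CPM (3.23 to 4.53) in 5xFAD-Dp16, 6.91 (5.94 to 7.996) in 5xFAD, 4.34 (3.64 to 5.14) in Dp16 and 7.28 (6.402 to 8.24) in wild-type tissue. The 2 sections with Dp16 were low and the 2 without it were high, with no overlap between these pairs. The share of all genes with such a separation was not counted. Leaving out clusters 12 and 13 gave nearly the same Ccn1 levels, 3.76, 7.22, 4.35 and 7.11 CPM.

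Over all spots Acta2, Tagln and Vwf were higher in both sections with Dp16 than in both without it, with no overlap of intervals. Ccn1 separated the same sections in the opposite direction. The share of all genes that separate the sections in this way was not counted. The region labelled Cortex RSP, CL had 66 spots in 5xFAD-Dp16 and 55 in Dp16, and 0 in 5xFAD and wild-type. The sections with Dp16 thus held tissue that the others did not, which all-spot levels cannot tell apart from genotype. Region-standardised ratios leave this region out. The promoters of Acta2 and Ccn1 are shown, as no window was held for Tagln or Vwf. RefSeq windows of 300 bases, 250 before to 50 after a RefSeq transcript start, were held for 5 of the 9 genes (Acta2, Ccn1, Cldn5, Flt1 and Vtn). Smooth muscle genes are classically driven by serum response factor through CArG boxes, and YAP acts through TEAD factors, whose core motif reads GGAATG, or CATTCC on the other strand. Capitals mark CArG-like elements (CC and GG around 6 bases, of which at least 5 are A or T), GGAATG on either strand, and TATAAA. The first window is chr19:34255324-34255623 and the second chr3:145649936-145650235, both on the minus strand and printed 5′ to 3′ along the gene. The Acta2 window is placed on a start that lies 212 bases inside the gene as annotated, and that of Ccn1 on the annotated end of the gene.
Acta2: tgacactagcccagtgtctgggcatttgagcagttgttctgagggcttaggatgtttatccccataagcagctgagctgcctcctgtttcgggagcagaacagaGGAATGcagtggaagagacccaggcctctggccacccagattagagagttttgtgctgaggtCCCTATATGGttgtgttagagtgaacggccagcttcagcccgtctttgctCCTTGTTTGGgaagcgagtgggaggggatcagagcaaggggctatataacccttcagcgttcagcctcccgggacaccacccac
Ccn1: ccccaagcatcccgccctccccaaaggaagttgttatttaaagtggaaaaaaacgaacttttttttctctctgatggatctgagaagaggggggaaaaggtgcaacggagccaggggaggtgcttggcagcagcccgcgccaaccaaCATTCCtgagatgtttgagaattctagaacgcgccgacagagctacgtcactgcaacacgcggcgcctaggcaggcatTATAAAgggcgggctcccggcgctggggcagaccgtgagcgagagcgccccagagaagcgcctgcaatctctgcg
The Acta2 window held 2 CArG-like elements, starting 84 and 34 bases before the transcript start of that window, and 1 GGAATG. The Ccn1 window held CATTCC 103 bases and TATAAA 25 bases before its start, and no CArG-like element. Of 32544 promoter windows, 9.96% held a CArG-like element on either strand, 14.6% GGAATG and 13.6% TATAAA, so such matches are common by letters alone.

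Between the Dp16 and wild-type sections, 3 of the 9 genes were at least 1.5-fold higher in Dp16, against a background of 2.02% of genes, and 1 was at least 1.5-fold lower, against a background of 3.11%. The genes that were higher were Vwf at a log2 ratio of 1.02 (0.72 to 1.32), Acta2 at 0.79 (0.59 to 1.00) and Tagln at 0.60 (0.33 to 0.88). Cldn5 was at 0.34 (0.24 to 0.45) and Vtn at 0.31 (0.22 to 0.41), under the threshold with intervals above 0. Flt1 was at -0.30 (-0.48 to -0.12). Ccn1 was the gene that was lower, at -0.75 (-1.06 to -0.44). Pecam1 was at -0.26 (-0.52 to -0.0016). In all, 5 of the 9 intervals lay above 0, against 14.3% of all genes, and 3 below 0, against 48.3%. The median of the 9 genes was 0.34, beside -0.13 for all genes. Without clusters 12 and 13 the call was kept by Ccn1 alone, at -0.71 (-1.04 to -0.39), where the background was 2.42%, and no gene was 1.5-fold higher, where it was 1.23%. Intervals lay above 0 for 2 genes (13.9% of all genes) and below 0 for 3 (42.2%). Vwf remained above 0 at 0.54 (0.18 to 0.89) and Cldn5 at 0.33 (0.22 to 0.44), while Acta2 gave -0.02 (-0.31 to 0.26), Tagln -0.33 (-0.70 to 0.03) and Vtn -0.09 (-0.20 to 0.01).

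In the pair with the 5xFAD transgenes, 5xFAD-Dp16 over 5xFAD, no gene was at least 1.5-fold higher (background 0.625%) and 1 was at least 1.5-fold lower (background 0.798%). That gene was again Ccn1, at -0.85 (-1.18 to -0.52), and at -0.94 (-1.28 to -0.60) without clusters 12 and 13, where the background was 0.997% lower and 0.634% higher. Over all genes, 0.145% were at least 1.5-fold lower in both Dp16 pairs, which share no section. Vwf at 0.51 (0.17 to 0.86), Tagln at 0.49 (0.21 to 0.78) and Acta2 at 0.38 (0.16 to 0.59) had intervals above 0, and Acta2 kept this without the clusters at 0.44 (0.14 to 0.74). Vwf and Tagln did not, at 0.33 (-0.07 to 0.73) and 0.28 (-0.09 to 0.65). Cldn5 was lower in 5xFAD-Dp16, at -0.30 (-0.42 to -0.18), opposite in sign to the pair without the transgenes. Of the 9 intervals, 3 lay above 0 (14.9% of all genes) and 2 below (32.8%), and without the clusters 1 lay above (14.1%) and 3 below (32.0%).

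The 5xFAD comparisons gave smaller values, and they reuse the sections of the Dp16 comparisons. For 5xFAD over wild-type, none of the 9 genes was at least 1.5-fold higher (background 1.92%) or lower (background 1.14%); the extremes were Vtn at 0.20 (0.10 to 0.31) and Flt1 at -0.36 (-0.56 to -0.17). Of the 9 intervals, 1 lay above 0 (12.7% of all genes) and 2 below (36.6%). For 5xFAD-Dp16 over Dp16, none was higher (background 1.20%) or lower (background 1.02%) either, and the lowest values were Cldn5 at -0.55 (-0.66 to -0.45) and Vwf at -0.51 (-0.78 to -0.25). None of the 9 intervals lay above 0 (17.8% of all genes) and 4 lay below (24.1%). With clusters 12 and 13 left out, the interval of Cldn5 alone lay below 0, at -0.58 (26.2% of all genes), and none lay above (15.8%). The median of the 9 genes was then 0.06, beside -0.18 over all spots.

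**Figure D2:**
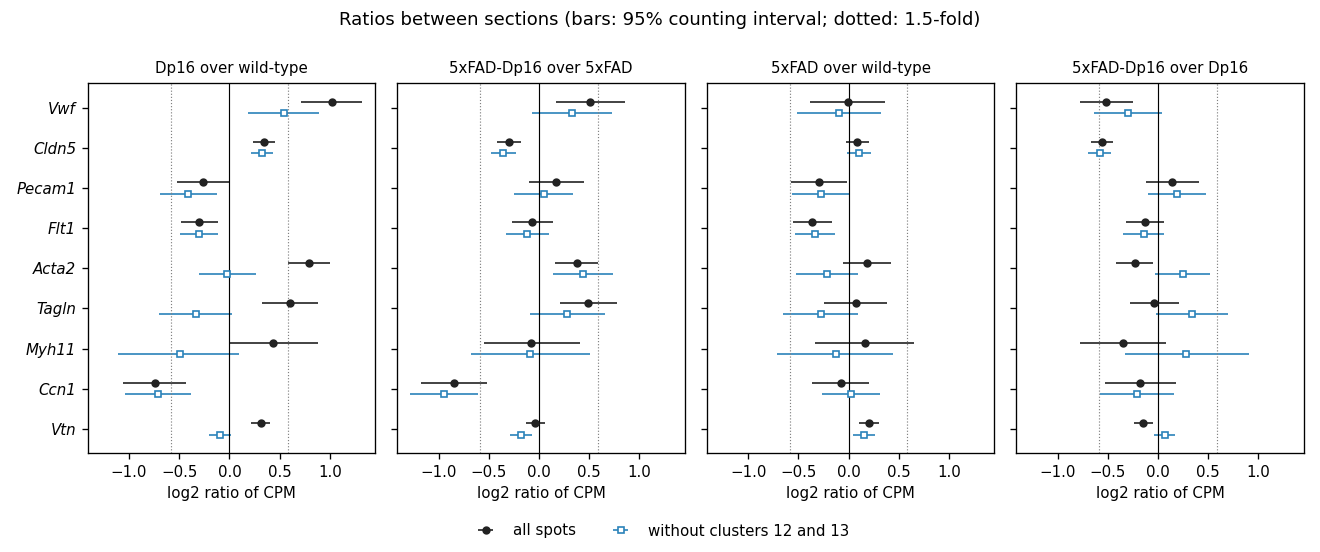
Log2 ratios of CPM (horizontal axis) of the 9 genes (rows) for 4 pairs of sections, for all spots (filled circles) and without clusters 12 and 13 (open squares), with 95% counting intervals and dotted lines at 1.5-fold. Ccn1 lies left of the dotted line in both Dp16 panels with both kinds of point, and Acta2, Tagln, Myh11, Vwf and Vtn shift left in the Dp16 over wild-type panel when the clusters are left out.

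The share of each gene's UMIs that fell in clusters 12 and 13 separated the smooth muscle genes from the capillary genes. Over the 4 sections these clusters held 6.515% of all UMIs. They held 47.6% of the Acta2 UMIs, 41.0% of Tagln, 37.5% of Myh11, 30.6% of Vwf and 21.7% of Vtn. They held 12.3% of the Pecam1 UMIs, 8.54% of Cldn5, 8.43% of Flt1 and 6.11% of Ccn1. In the Dp16 section, 310 of 499 Acta2 UMIs and 111 of 260 Vwf UMIs lay there, against 91 of 321 and 20 of 143 in wild-type tissue. Of the 22 clusters, cluster 12 had the highest level of every member but Ccn1, with 233 CPM of Acta2, 126 of Tagln, 83.6 of Vwf and 158 of Cldn5 over its 270 spots; since the clusters were made from these counts, this is a description.

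Choroid plexus and fibroblast genes were higher in Dp16 than in wild-type tissue along with Acta2, Tagln and Vwf, but not in 5xFAD-Dp16 over 5xFAD. The summed level of 12 choroid plexus genes was 15474 CPM in 5xFAD-Dp16, 20377 in 5xFAD, 33865 in Dp16 and 7390 in wild-type tissue, with none of the 12 at 0 in any section. The 15 meningeal and perivascular fibroblast genes summed to 176, 232, 327 and 116 CPM in the same order, also with none at 0. Over Dp16 and wild-type, all 12 tested choroid plexus genes and 6 of 7 tested fibroblast genes were at least 1.5-fold higher in Dp16, with medians of 2.06 and 1.54. In 5xFAD-Dp16 over 5xFAD their medians were -0.45 and -0.36, while Acta2, Tagln and Vwf were higher. Cluster 12, which had the highest levels of Acta2, Tagln and Vwf, held 2.22% of the UMIs in 5xFAD-Dp16 and 1.54% in 5xFAD. With clusters 12 and 13 left out, the choroid plexus list still summed to 9556 CPM in Dp16 against 1494 CPM in wild-type tissue, and the fibroblast list to 136 against 67.8 CPM. The 6 pituitary genes summed to 61.3 CPM in 5xFAD-Dp16, 9.64 in 5xFAD, 10.6 in Dp16 and 68.7 in wild-type tissue, with 0, 2, 2 and 1 of them at 0, and the 5 blood genes to 858, 1060, 497 and 1345 CPM, lowest in Dp16. The part of these tissues in the levels of the 9 genes was not tested beyond leaving out the clusters.

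Smooth muscle counts were also concentrated in few spots. In the Dp16 section the 10 spots richest in Acta2 held 189 of its 499 UMIs, or 37.9%, and all 10 lay in clusters 12 and 13; in wild-type tissue the 10 richest held 103 of 321, or 32.1%, and 6 lay there. For Vtn the 10 richest Dp16 spots held 17.5% of its UMIs, with 87 in 1 spot, against 7.51% and at most 21 in wild-type tissue. The variance of the UMIs per spot over the Poisson expectation was 5.31, 3.98, 9.70 and 5.46 for Acta2 in 5xFAD-Dp16, 5xFAD, Dp16 and wild-type tissue. For Pecam1 it was 1.06, 1.08, 1.19 and 1.01, close to an even spread. In the Dp16 section this ratio was 3.26 for Vwf, 2.68 for Myh11 and 2.36 for Cldn5. The 10 spots richest in Vwf there held 26.5% of its UMIs, and all 10 lay in clusters 12 and 13. The counting intervals of Acta2, Tagln, Vtn, Vwf, Myh11 and Cldn5 are therefore too narrow as a guide to how the values would vary between sections.

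Across 12 regions with at least 30 spots in every section, named as in the submitters' spot table, the region labelled FB had the highest mean level over the 4 sections for Vwf, Cldn5, Pecam1, Acta2, Tagln and Vtn. This rests on the Dp16 section: with that section left out, an alternative chosen after seeing the data, FB was highest for none of these 6 genes. Some gaps to the leading region were then small, with Cldn5 at 51.4 ± 4.67 CPM in FB and 51.7 ± 6.53 in the thalamus. Tagln was then at 10.1 ± 3.04 CPM in FB and 10.5 ± 8.19 in Cortex RSP, IL. The FB mean was 31.3 ± 23.2 CPM for Acta2 and 11.7 ± 10.7 CPM for Vwf (SD over 4 sections), and 19.8 ± 3.21 and 6.35 ± 0.770 CPM without Dp16, where VL led for Acta2 at 23.7 ± 4.16 CPM and the thalamus for Vwf at 6.73 ± 1.27 CPM. Without clusters 12 and 13, over 4 sections, the hypothalamus led for Acta2 at 11.035 ± 5.00 CPM and VL for Vwf at 7.37 ± 6.85 CPM. FB still led in that setting for Cldn5 at 58.2 ± 11.8 CPM, Pecam1 at 9.65 ± 3.17, Tagln at 6.06 ± 2.38 and Vtn at 67.5 ± 8.03. Acta2 in FB measured 23.1 CPM in 5xFAD-Dp16, 19.7 in 5xFAD, 65.9 in Dp16 and 16.7 in wild-type tissue. Tagln measured 12.98, 10.3, 29.2 and 6.92 CPM and Vwf 6.25, 7.17, 27.7 and 5.64 CPM in the same order. The Dp16 section was thus far above the other 3 in this region, with Dp16 over wild-type log2 ratios of 1.98 (1.57 to 2.42) for Acta2, 2.08 (1.43 to 2.77) for Tagln and 2.30 (1.59 to 3.05) for Vwf. In FB without clusters 12 and 13 the levels were 12.2, 2.81, 17.3 and 5.78 CPM for Acta2 and 6.63, 5.63, 10.8 and 5.50 CPM for Vwf in 5xFAD-Dp16, 5xFAD, Dp16 and wild-type tissue. In the region labelled VL, Vwf had 13 UMIs in 5xFAD-Dp16, 1 in 5xFAD and 48 in Dp16, against 0 in wild-type tissue. The Dp16 level of 17.0 CPM was 4.42-fold above the 3.84 CPM that 3 counts would give in the wild-type region. That fold depends on the 3 counts set for 0 and is not a lower bound.

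Over all spots, FB and the thalamus held ranks 1 and 2, in either order, for Vwf, Cldn5, Pecam1 and Flt1. With the Dp16 section left out, the thalamus led for all of them, within the spread of FB for Vwf, Cldn5 and Pecam1. Flt1 was highest in the thalamus, at 21.0 ± 4.02 CPM (SD over 4 sections), ahead of FB at 16.2 ± 3.48 CPM, a gap that is no larger than these spreads added. Cldn5 had 60.6 ± 18.9 CPM in FB, 55.9 ± 9.98 in the thalamus and 52.1 ± 10.1 in Cortex RSP, IL, which do not differ beyond their spread, and was lowest in VL at 21.3 ± 4.46 CPM. Without clusters 12 and 13 its level in VL was 35.3 ± 8.77 CPM, and Cortex PTL was lowest at 28.5 ± 6.23 CPM. For Pecam1, FB at 10.7 ± 2.51 CPM and the thalamus at 9.83 ± 2.41 CPM were likewise within their spread. Between Dp16 and wild-type tissue, Cldn5 was higher in Dp16 in 8 of 12 regions, with 6 intervals above 0 and 1 below. The widest of these differences was in the hippocampus, with 38.3 CPM in 5xFAD-Dp16, 40.4 in 5xFAD and 43.5 in Dp16 tissue, against 22.6 in wild-type tissue, so there the wild-type section stood below the other 3. The interval below 0 was that of Cortex PTL, with 21.2 CPM in Dp16 against 37.2 in wild-type tissue. In 5xFAD-Dp16 over 5xFAD, Cldn5 was lower in 9 of 12 regions, with 3 intervals below 0 (Cortex OLF, hypothalamus and thalamus) and none above. Myh11 had 4.35 ± 2.25 CPM in Cortex RSP, IL, 3.83 ± 2.46 in FB and 3.42 ± 2.91 in VL, which overlap.

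**Figure D3:**
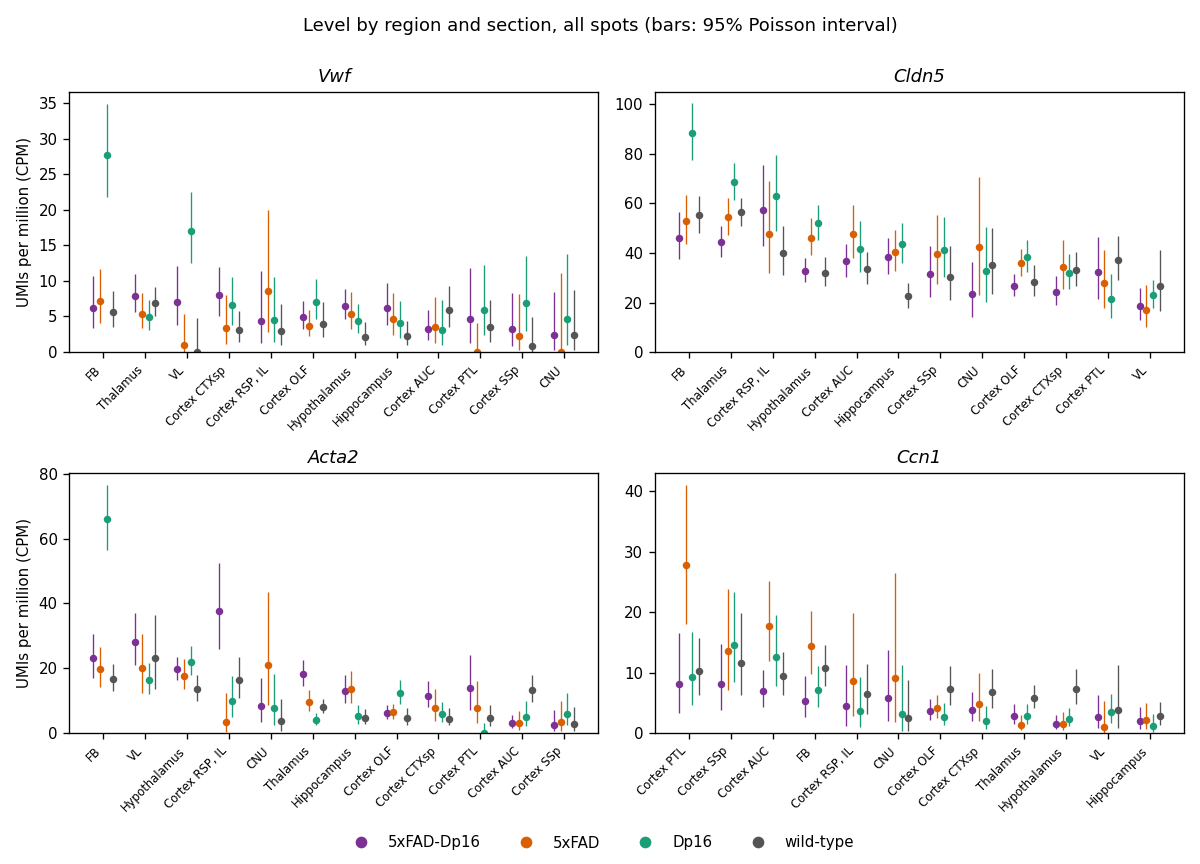
CPM (vertical axis) of Vwf, Cldn5, Acta2 and Ccn1 in 12 regions, ordered from left to right by the mean over sections, with 1 point per section and 95% Poisson intervals. The Dp16 points of Vwf and Acta2 stand apart in FB, at 27.7 and 65.9 CPM, and the highest Ccn1 point is that of 5xFAD in Cortex PTL at 27.8 CPM.

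Ccn1 did not share the map of the other 8 genes. Its highest regions were Cortex PTL at 13.8 ± 9.34 CPM, Cortex SSp at 11.97 ± 2.88 and Cortex AUC at 11.6 ± 4.65, which overlap, and its lowest was the hippocampus at 1.98 ± 0.684 CPM. It was highest in cluster 9, with 23.8 CPM (19.8 to 28.4) over 452 spots, where 125 of its 704 UMIs lay. That cluster was led by Ccn2, Cplx3, Trbc2, Ighm, Vxn, Nxph3, Myl4 and Nr4a2; Cplx3, Nxph3 and Nr4a2 are known from the deepest layer of the cortex. Within cluster 9 Ccn1 measured 16.8 CPM in 5xFAD-Dp16, 41.9 in 5xFAD, 26.1 in Dp16 and 17.3 in wild-type tissue. Elsewhere it measured 3.38, 5.54, 3.44 and 6.72 CPM, so the 2 Dp16 sections were low outside this cluster and not uniformly so inside it. Leaving out cluster 9, an alternative chosen after seeing the data, gave log2 ratios of -0.97 (-1.32 to -0.62) for Dp16 over wild-type and -0.71 (-1.08 to -0.35) for 5xFAD-Dp16 over 5xFAD.

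The regions behind the lower Ccn1 levels differed between the Dp16 pairs. For Dp16 over wild-type, 9 of 12 regions were lower and the intervals lay below 0 in Cortex CTXsp, Cortex OLF, hypothalamus and thalamus, with 13 UMIs in the Dp16 thalamus and 41 in the wild-type thalamus. For 5xFAD-Dp16 over 5xFAD, 9 of 12 regions were again lower, and the intervals lay below 0 in Cortex AUC, Cortex PTL and FB, with 11 UMIs in the 5xFAD-Dp16 FB and 32 in the 5xFAD FB. Ccn2, the other CCN gene known as a YAP target, measured 15.1 CPM in 5xFAD-Dp16, 24.2 in 5xFAD, 15.9 in Dp16 and 23.5 in wild-type tissue. Its log2 ratios were -0.56 (-0.73 to -0.40) for Dp16 over wild-type and -0.68 (-0.85 to -0.51) for 5xFAD-Dp16 over 5xFAD. Ccn3, another member of the family, did not follow, at 0.35 (0.26 to 0.44) and -0.59 (-0.67 to -0.51) in the same pairs. Of 4 tested genes of the CCN and YAP target list of 9, 0 were at least 1.5-fold lower in Dp16 over wild-type and 2 in 5xFAD-Dp16 over 5xFAD, with medians of -0.28 and -0.40.

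Immediate early genes, the transcripts that neurons and other cells switch on within minutes of stimulation, were measured beside Ccn1. Of 13 tested, 10 were at least 1.5-fold lower in Dp16 than in wild-type tissue, with a median log2 ratio of -1.0004; Egr1 was at -1.14 and Arc at -1.24. In 5xFAD-Dp16 over 5xFAD, 2 of 13 were at least 1.5-fold lower, the median was -0.05 and Egr1 was at -0.05 (-0.13 to 0.03), whereas Ccn1 was at -0.85. The part of this list in the Ccn1 difference was not tested.

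Of 33 other endothelial genes 24 were tested, of which 1 was at least 1.5-fold higher and 0 lower in Dp16 over wild-type, with a median of 0.02 (-0.11 without clusters 12 and 13), and 0 and 0 in 5xFAD-Dp16 over 5xFAD, with a median of 0.04. The summed level of all 33 was 571 CPM in 5xFAD-Dp16, 559 in 5xFAD, 580 in Dp16 and 581 in wild-type tissue. Ramp2, a receptor partner for adrenomedullin in endothelium, had the highest value in the list by the smaller of its ratios in both Dp16 pairs, with 40.5 CPM in 5xFAD-Dp16 against 31.6 in 5xFAD and 40.6 in Dp16 against 29.9 in wild-type tissue. Ly6c1 and Slc2a1, the most abundant of the list and an endothelial surface protein and the glucose transporter of the barrier, were at 0.02 and -0.29 in Dp16 over wild-type and at 0.13 and 0.09 in 5xFAD-Dp16 over 5xFAD. Vcam1, an endothelial adhesion molecule for leukocytes and the 1 gene of the list past 1.5-fold, was opposite in sign in the pairs, like Cldn5, at 0.59 (0.43 to 0.75) and -0.42 (-0.59 to -0.25). Of 7 tested pericyte genes, from a list of 12, none passed 1.5-fold in either pair; Rgs5 was at -0.10 and -0.18 and Mcam at -0.50 (-0.70 to -0.30) and -0.40 (-0.61 to -0.20). Of 5 other smooth muscle genes tested, from a list of 14, the LIM domain gene Crip1 passed 1.5-fold in Dp16 over wild-type, at 0.59 (0.47 to 0.71), with Myl9 at 0.45 (0.29 to 0.61) and a list median of 0.36 that was 0.02 without clusters 12 and 13. Of these 5 intervals 4 lay above 0 and 0 below in Dp16 over wild-type, and 1 above and 0 below with the clusters left out. None of these 5 passed in 5xFAD-Dp16 over 5xFAD, with a median of 0.10. Of the 5 tested VEGF ligands and receptors, from a list of 9, none passed in either pair; Vegfb, a ligand of Flt1, was at 0.22 (0.17 to 0.27) and 0.21 (0.16 to 0.27) and Vegfa at -0.07 and -0.06. Lists for microglia (9 genes), astrocytes (7), oligodendrocytes (6) and neurons (7) had medians of -0.39, -0.11, -0.33 and -0.29 in Dp16 over wild-type and of -0.17, -0.07, -0.09 and -0.12 in 5xFAD-Dp16 over 5xFAD, beside -0.13 and -0.07 for all genes.

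The genes were then compared within spots, outside clusters 12 and 13. Spots with at least 1 UMI of Tagln held 10.8 to 13.6 times the Acta2 level of spots without it in the 4 sections, and spots with Myh11 11.6 to 17.3 times. Tagln was 6.96 to 11.6 times higher in spots with Acta2. The 3 smooth muscle genes therefore shared spots in every section, with every fold's interval above 1. Acta2 was 3.08 to 6.47 times higher in spots with Vwf, but 0.904 to 1.77 times in spots with Flt1, with an interval above 1 in 2 of 4 sections. Cldn5 was 1.44 to 1.59 times higher in spots with Flt1 and 1.73 to 2.41 times in spots with Vwf, above 1 in all 4 sections. Flt1 was 0.972 to 1.24 times as high in spots with Pecam1 and 1.12 to 1.45 times in spots with Vwf, above 1 in 0 of 4 sections. Pecam1 was 1.29 to 1.69 times higher in spots with Cldn5, above 1 in 2 of 4. The fold also depends on how widely a gene is detected. Over all spots, Cldn5 was found in 728 to 927 spots of a section and Myh11 in 54 to 76. The folds of endothelial and smooth muscle genes are therefore not compared as degrees of sharing. Vtn was 1.24 to 1.63 times higher in spots with Cldn5 and 1.33 to 1.82 times in spots with Acta2. Ccn1 was 0.639 to 1.33 times as high in spots with Cldn5 and 0.244 to 1.83 times in spots with Acta2, so its direction differed between sections. Detecting a gene in a spot depends on the spot's depth, which the CPM scale only partly removes, so ratios near 1 carry little information.

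**Figure D4:**
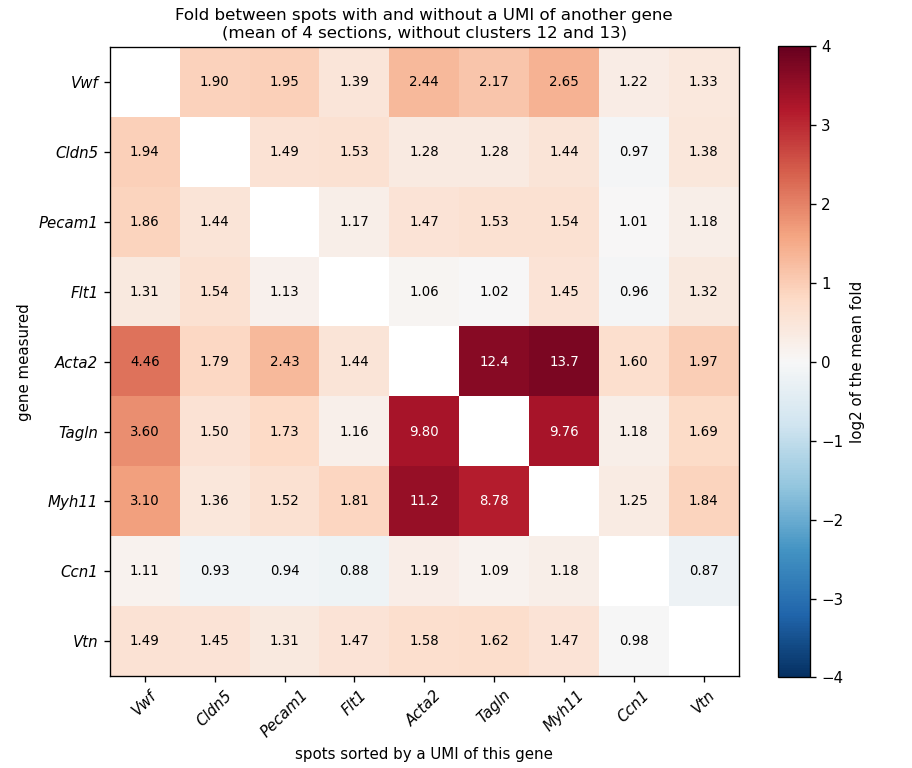
Mean over 4 sections of the fold between spots with and without a UMI of the gene on the horizontal axis, for the gene on the vertical axis, without clusters 12 and 13; the colour is the log2 of the fold printed in each cell. The smooth muscle block of Acta2, Tagln and Myh11 stands out at 8.78 to 13.7, Vwf links to it at 2.17 to 4.46, and the row and column of Ccn1 stay between 0.865 and 1.60.

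The genes most like each member over the 48 region and section sums are given as a description, in which the points share libraries and depth. The smooth muscle genes shared a closest gene, and the 4 endothelial genes each had a different one. Myl9, a myosin light chain of smooth muscle, was the closest gene to Acta2 (Pearson r = 0.89), to Tagln (0.74) and to Myh11 (0.58). Vwf was closest to Stab1 (0.61), a scavenger receptor of sinusoidal endothelium and macrophages, and Vtn to H2-K1 (0.81), a class I histocompatibility gene. Cldn5 was closest to Ap2a1 (0.76) and Gpr37l1 (0.75), of which Gpr37l1 is an astrocyte receptor, Flt1 to Zyx (0.71) and Pecam1 to Nrbp2 (0.59). Ccn1 was closest to Hs3st2 (0.79), Myl4 (0.78) and Dusp1 (0.75), an immediate early phosphatase. Among the members, Vwf had an r of 0.58 with Tagln, 0.34 with Cldn5, 0.34 with Pecam1 and 0.09 with Flt1. With clusters 12 and 13 left out, the r with Myl9 was 0.72 for Acta2, 0.46 for Tagln and 0.34 for Myh11, that of Vwf with Stab1 was 0.34 and that of Ccn1 with Hs3st2 0.77.

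Spots marked by the submitters as lying on plaques were present only in the 2 sections with the 5xFAD transgenes, 396 in 5xFAD-Dp16 and 324 in 5xFAD. They were compared with unmarked spots of the same section, neither on nor next to a plaque, matched by region over 11 regions in 5xFAD-Dp16 and 10 in 5xFAD that held at least 10 spots of each kind. Spots of 1 section are not replicates, so this describes each section. In 5xFAD-Dp16, 0 of 9 genes were at least 1.5-fold higher at plaques (background 2.51%) and 1 was at least 1.5-fold lower (background 3.92%). In 5xFAD, 1 was higher (background 2.38%) and 1 lower (background 4.59%). None of the 9 passed in the same direction in both sections, against 1.11% of all genes higher and 1.26% lower in both. No interval lay above 0 in 5xFAD-Dp16 (11.1% of all genes) and 3 lay below (8.24%); in 5xFAD 1 lay above (7.57%) and 1 below (8.08%).

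Among the endothelial genes, Cldn5 was at 34.1 CPM in plaque spots against 38.0 in unmarked spots of 5xFAD-Dp16 and at 48.6 against 44.8 in 5xFAD, with log2 ratios of -0.16 (-0.43 to 0.12) and 0.12 (-0.15 to 0.39). Vwf and Flt1 had intervals across 0 in both sections. Pecam1 was lower at plaques in 5xFAD-Dp16, with 5.07 against 8.65 CPM and a log2 ratio of -0.77 (-1.46 to -0.08), on 23 UMIs in plaque spots; in 5xFAD it was at 0.20 (-0.48 to 0.88). Vtn was lower in 5xFAD-Dp16, with 45.8 against 66.7 CPM and -0.54 (-0.78 to -0.30), and at -0.10 (-0.34 to 0.15) in 5xFAD. Without clusters 12 and 13 Vtn was at -0.36 (-0.62 to -0.11) in 5xFAD-Dp16 and 0.11 (-0.14 to 0.37) in 5xFAD. In the spots next to plaques of 5xFAD-Dp16, Pecam1 was at 0.06 (-0.37 to 0.49) and Vtn at -0.25 (-0.43 to -0.08). The 4 tested blood genes had plaque medians of -0.81 in 5xFAD-Dp16 and 0.57 in 5xFAD, and their part in the Pecam1 values was not tested.

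The Acta2 level was lower in plaque spots of both sections, with 9.44 against 13.6 CPM in 5xFAD-Dp16 and 6.74 against 14.3 CPM in 5xFAD. The log2 ratios were -0.53 (-1.01 to -0.05) and -1.09 (-1.75 to -0.42), and -1.02 (-1.78 to -0.25) and -0.48 (-1.24 to 0.28) without clusters 12 and 13. In 5xFAD-Dp16 the interval did not exclude 0 under every choice of regions: the value was -0.34 (-0.79 to 0.10) over regions with at least 5 spots of each kind, -1.22 (-1.91 to -0.53) with at least 30 and -0.13 (-0.56 to 0.28) with no matching by region. The same settings gave -1.09, -1.04 and -1.01 in 5xFAD. Of the 44 plaque UMIs in 5xFAD-Dp16, 22 lay in Cortex RSP, IL, where unmarked spots held 0. In spots next to plaques Acta2 differed in sign between the sections, at 0.38 (0.06 to 0.70) in 5xFAD-Dp16 and -1.06 (-1.58 to -0.55) in 5xFAD. Tagln at plaques was at -0.27 (-0.87 to 0.33) and -0.53 (-1.30 to 0.25), while Myh11 was too sparse to place, with 11 and 10 UMIs in plaque spots. Meningeal fibroblast genes were also lower in plaque spots, with a median of -1.01 in both sections, and choroid plexus genes, with -0.67 in 5xFAD-Dp16 and -1.04 in 5xFAD; clusters 12 and 13 held 8 of 396 plaque spots against 140 of 1786 unmarked spots in 5xFAD-Dp16, and 5 of 324 against 117 of 1395 in 5xFAD. The part of vessels of the brain surface in the lower Acta2 was not tested beyond leaving out these clusters. Ccn1 was higher at plaques in 5xFAD, with 10.3 against 5.01 CPM and a log2 ratio of 1.04 (0.38 to 1.71) on 29 UMIs, and at 0.25 (-0.62 to 1.11) in 5xFAD-Dp16. Of these 29 UMIs, 12 lay in Cortex PTL, where unmarked spots held 10, at 1.80 (0.47 to 3.17). The ratio was above 0 in 7 of 10 regions, but no other region's interval excluded 0. Next to plaques in 5xFAD, Ccn1 was at 0.98 (0.43 to 1.53), and at plaques over the 4 regions with at least 30 spots of each kind at 0.18 (-1.003 to 1.36), on 8 UMIs. Microglial genes, which gather at plaques, had medians of 1.01 and 1.24, and 24 other endothelial genes had medians of -0.18 and -0.0045 in 5xFAD-Dp16 and 5xFAD.

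**Figure D5:**
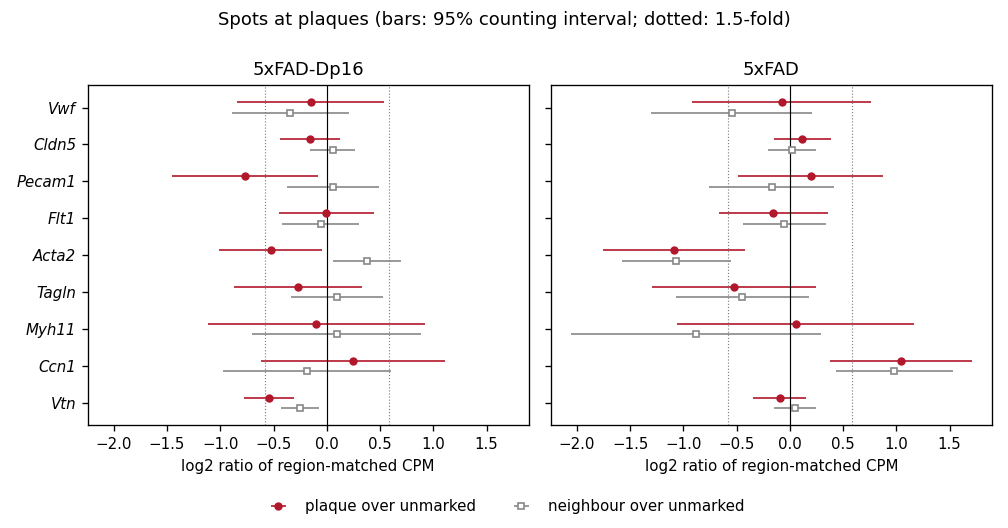
Region-matched log2 ratios (horizontal axis) of the 9 genes (rows) in plaque spots (filled circles) and in spots next to plaques (open squares) over unmarked spots, for 5xFAD-Dp16 on the left and 5xFAD on the right, with 95% counting intervals and dotted lines at 1.5-fold. Acta2 lies left of 0 at plaques in both panels, at -0.53 and -1.09, and Ccn1 lies right of the dotted line in the 5xFAD panel only, at 1.04.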

How the data were processed

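The authors deposited 1 matrix of raw UMI counts (whole numbers per gene and spot, not normalised) and 1 spot table with section, region, plaque mark, plaque neighbourhood and cluster; per the submitters' processing notes the data were made with Space Ranger and Seurat on mm10, and the sources used here give no versions. The spot table also held the authors' deposited percent of mitochondrial counts, with medians of 14.3 to 16.7 by section. Every deposited spot was kept and no doublet caller was run. Counts were summed per section, region, plaque status and cluster and divided by the summed UMIs (CPM). Ratios had exact conditional binomial (Clopper-Pearson) intervals, and plaque comparisons weighted regional CPM by their spots, with delta-method intervals; a count of 0 was set to 3 counts in a ratio. Likeness was Pearson's r of log2(CPM + 5). No count model was fitted because each genotype had 1 section, and no paired analysis was possible because each group had 1 sample. TMM factors came from edgeR 4.0.16 in R 4.3.3; the rest used Python 3.11.15, numpy 2.4.6, scipy 1.17.1 and pandas 2.3.3. The interval code was tested on simulated data. The 9 genes and the gene lists were chosen with earlier results of these data known. All 9 genes are named; of each list, the 2 most abundant genes and the highest and lowest by the smaller of both pair ratios could be named, and of the genes most like a member the first 3. Promoter sequences came from RefSeq for GRCm38.p6. Alternatives tried were leaving out clusters 12 and 13, other scalings, region-standardised levels, means over spots, other minimums and thresholds, and, added after seeing the data, leaving out cluster 9, the region labelled FB or, for regional means, the Dp16 section.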

Additional observations from a re-analysis of the deposited data

Results flagged for a closer look

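Cldn5 and Vtn had ratios of opposite sign in the matched pairs of sections, with counting intervals that excluded 0 in both. Cldn5 was higher in Dp16 than in wild-type tissue, at a log2 ratio of 0.34, and lower in 5xFAD-Dp16 than in 5xFAD tissue, at -0.30. The double difference, 5xFAD-Dp16 over Dp16 minus 5xFAD over wild-type, was -0.64 (-0.80 to -0.49) for Cldn5 over all spots and -0.68 (-0.85 to -0.52) without clusters 12 and 13, beside a median of 0.06 for all genes. Vtn was higher in 5xFAD than in wild-type tissue, at 0.20, and lower in 5xFAD-Dp16 than in Dp16 tissue, at -0.15. Its double difference was -0.35 (-0.48 to -0.22) over all spots and -0.09 (-0.24 to 0.06) without clusters 12 and 13. Over all spots Vwf was at -0.51 (-0.95 to -0.06), Acta2 at -0.42 (-0.71 to -0.12) and Pecam1 at 0.43 (0.06 to 0.81). The intervals of Flt1, Tagln, Myh11 and Ccn1 held 0. Without the clusters Acta2 changed sign, at 0.46 (0.06 to 0.86), and Tagln was at 0.61 (0.11 to 1.11). Pecam1 was then at 0.46 (0.06 to 0.85), and the interval of Vwf held 0. With 1 section per genotype no double difference was tested against the spread between mice.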

How the results depend on the processing

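With 1 section per genotype no replicate could be left out. No paired analysis was possible because each group has 1 section. Of the values that answer a comparison, 133 alternatives stayed within counting error, 19 moved beyond it and 3 changed sign; of the other single values, 428, 50 and 15. Brackets give the share of all genes past the same threshold in the same setting. Leaving out clusters 12 and 13 gave Dp16 over wild-type log2 ratios of -0.022 for Acta2, -0.33 for Tagln and -0.094 for Vtn, a median of -0.30 and 0 genes at least 1.5-fold higher (1.23%). Region-standardised without those clusters, the same ratios were -0.052, -0.46 and -0.094, again with 0 genes higher (1.13%). Region-standardised with the clusters kept, 2 genes were higher in Dp16 over wild-type (1.14%). For 5xFAD-Dp16 over Dp16, leaving the clusters out gave 0.24 for Acta2, 0.064 for Vtn and a median of 0.064, and with regions standardised 0.22, 0.19 and 0.19. Without the region labelled FB, chosen after seeing the data, 1 gene was higher in Dp16 over wild-type (2.24%) and 1 in 5xFAD-Dp16 over 5xFAD (0.689%), and 5xFAD-Dp16 over Dp16 gave 0.20 for Acta2 and 0.085 for Vtn. A mean over spots gave 1 gene higher in 5xFAD-Dp16 over 5xFAD (0.734%) and 0.060 for Vtn in 5xFAD-Dp16 over Dp16. At 2-fold, 1 gene was higher (0.843%) and 0 lower (0.562%) in Dp16 over wild-type, and 0 were lower in 5xFAD-Dp16 over 5xFAD (0.118%). At plaques of 5xFAD-Dp16, 2 genes were lower without clusters 12 and 13 (3.63%), and 1 was higher (4.19%) and 2 lower (5.86%) with at least 30 spots of each kind. Neighbours of plaques there gave 0.060 for Pecam1, 0.38 for Acta2, a median of 0.056 and 0 genes lower (1.13%). At plaques of 5xFAD, 2 genes were higher (2.69%) and 0 lower (4.03%) without clusters 12 and 13, 0 were higher with at least 30 spots of each kind (3.68%), and 2 were lower for neighbours (2.22%). With equal weight per spot, 9.78% of Cldn5 and 50.9% of Acta2 UMIs lay in clusters 12 and 13. The cause of these changes was not tested beyond what each alternative leaves out. Depth limits Myh11, Vwf and Ccn1 most, whose regional and plaque values rest on few UMIs.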
